A study of Saccharomyces cerevisiae with 6 samples.

Results

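Ribosome biogenesis factors are the nucleolar proteins that cut, modify and fold the precursor of ribosomal RNA (rRNA) and assemble it into ribosomal subunits. The 45 factors described here were chosen by standard gene name as known assembly factors, with earlier results of these data known, and matched to rows by systematic name. All 45 had a row and a value in each of the 6 columns, out of 6205 reading frames on the array and 6151 with complete values. They lie on 15 chromosomes of the R64 reference assembly of Saccharomyces cerevisiae, and their coding sequences run from 552 to 7482 bases with a median of 1722. No pair of them are direct neighbours among the genes of that assembly with a row on the array. Genes without a row were passed over here and in the pairs that follow. In 4 cases a factor lies beside another assembly factor that is not among the 45, namely RPF1 beside GAR1, NOC3 beside CMS1, UTP13 beside RSA3 and NOC4 beside RRP15. None of these pairs is divergently transcribed.

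Each of the 6 comparisons set treated cells against control cells of their own strain by 2-colour array, all in YEPD, a rich glucose medium. Wild-type cells (WT, strain UCC1899) and cells homozygous for ATP1-111 (strain UCC3980) had lost mitochondrial DNA (mtDNA) after growth with ethidium bromide (30 µg/ml) for 6 h, and were set against cells with intact mtDNA. ATP1 encodes a catalytic-core subunit of the mitochondrial ATP synthase. WT cells were taken 3, 11, 19 and 27 h after mtDNA loss and ATP1-111 cells after 27 h. In the remaining strain (UCC3970) NAR1, whose product helps to place iron-sulfur clusters on cytosolic proteins, was repressed by moving cells from 50 to 2 nM estradiol for 27 h, against cells kept at 50 nM. The sources used here do not state whether control cells saw ethidium bromide or whether a control RNA served several WT time points.

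For each comparison each gene had 1 deposited ratio that the authors had averaged over 6 arrays (5 for ATP1-111) and that covered 3 biological replicates and dye swaps. The replicates behind an average are not shown, so the ratios below are given without a replicate error. Standard errors (SE) and adjusted p-values come from a limma fit over all 6151 genes, with the departure of the 4 WT values from a linear trend in time as the measure of spread and Benjamini-Hochberg adjustment over all genes. The ATP1-111 and NAR1 columns were tested as if they varied in the same way. As a yardstick, the 13 genes with 2 spots gave single-spot SDs from 0.151 to 0.239 (log2) across the columns. NAR1 itself stood at a ratio of 0.031 in the repressed cells. A ratio shows change relative to the other transcripts, not an absolute amount, and fewer cells of a kind cannot be told apart from less RNA per cell.

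As background, rRNA is transcribed by RNA polymerase I as a long precursor on which the small-subunit processome forms first. Its building blocks are the UTP-A and UTP-B complexes, the U3 small nucleolar ribonucleoprotein (snoRNP) and the Mpp10 complex. After a cut that parts the small-subunit from the large-subunit precursor, a second set of factors, many of them helicases, GTPases and scaffold proteins, matures the large subunit. In budding yeast the genes for these proteins are known as a regulon that is transcribed together in response to growth conditions, distinct from the genes for the ribosomal proteins themselves.

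After mtDNA loss in WT cells the biogenesis factors as a group lay above their level in cells with mtDNA, by a small amount. The median ratio of the 45 factors was 1.37 at 3 h, 1.34 at 11 h, 1.06 at 19 h and 1.22 at 27 h. The median ratio of all 6151 genes stayed between 0.96 and 0.996 in these columns. At 3 h 44 of the 45 factors had a ratio above 1, where 49.0% of all genes did, and the same 44 of 45 lay above the upper quartile of all genes. In ATP1-111 cells the median of the factors was 0.928, and after NAR1 repression it was 1.37 again, with the widest spread of any column.

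**Figure D1:**
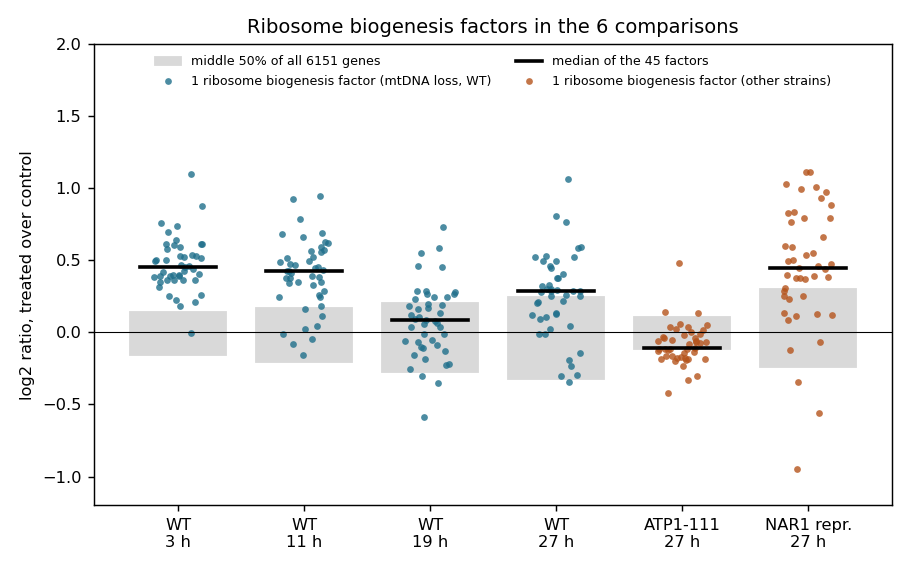
The log2 ratio (treated over control, vertical axis) of each of the 45 factors is plotted for the 6 comparisons (horizontal axis), with a black bar at the median of the factors and a grey box over the middle 50% of all 6151 genes. The medians lie at 0.46, 0.42, 0.08, 0.28, -0.11 and 0.45 from left to right, and the points spread most in the NAR1 column, from -0.95 to 1.11.

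Averaged over the WT time course, 29 of 45 factors were higher than in cells with mtDNA and 0 were lower (limma, the fitted line at the mean of the 4 times against no change, adjusted p under the threshold of 0.05). Among all genes 19.8% were higher and 23.9% lower by the same test. At an unadjusted p under 0.05, 33 factors were higher and 0 lower, where 1494 and 1820 of all 6151 genes were. The median log2 difference was 0.31 for the factors and -0.03 for all genes. This contrast was added after the values were seen, and noise in a control RNA shared between time points would not enter its error. Only 18, 16 and 20 factors passed without the 11, 27 or 3 h column respectively, 30 passed without 19 h, and 0 passed by ordinary least squares (22 at an unadjusted p under 0.05).

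The large-subunit factors made up most of these calls. Of 22 factors assigned to the large subunit alone, 18 passed, and of 18 assigned to the small subunit alone, 9 did. Without the 27 h column 9 and 5 of these calls held, and no test compared the shares. The difference between the classes in their medians was small, at 0.50 against 0.41 at 3 h and 0.31 against 0.23 at 27 h on the log2 scale.

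The gene with the highest ratio at 3 and at 27 h was NSR1, the yeast relative of nucleolin, which binds pre-rRNA during small-subunit processing. Its ratio was 2.14 at 3 h, 1.90 at 11 h, 1.38 at 19 h and 2.09 at 27 h, with 0.884 in ATP1-111 cells and 1.08 after NAR1 repression. It was thus about doubled at both ends of the WT course and close to its control by size in the other strains. In ATP1-111 cells its log2 ratio of -0.18 still lay below the lower quartile of all genes, -0.12. Its WT mean was 0.89 on the log2 scale (SE 0.12, adjusted p = 0.00478 in limma).

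In the PeBoW complex of NOP7, ERB1 and YTM1, which joins early large-subunit particles, all 3 genes were higher over the WT course. NOP7 had ratios of 1.83, 1.92, 1.66 and 1.41 at 3, 11, 19 and 27 h, then 0.796 in ATP1-111 cells and 0.956 after NAR1 repression. This gave the lowest adjusted p of the 45 for the WT mean (log2 0.76, SE 0.06, adjusted p = 0.00154). ERB1, its scaffold partner, had ratios of 1.53, 1.54, 1.10 and 1.22 in the WT columns, 0.949 in ATP1-111 cells and 2.02 after NAR1 repression. YTM1, a WD-repeat protein, stayed between 1.03 and 1.37 in WT cells. Without the 27 h column only NOP7 kept its call for the WT mean (ERB1 0.0603, YTM1 0.13, adjusted p in limma), and YTM1 was also lost without 3 or 11 h. In the NAR1 column ERB1 was the highest and NOP7 the lowest of the 3.

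All 6 helicase genes that act on the large subunit were higher over the WT course. DBP10 was the highest of them, with WT ratios of 1.69, 1.73, 1.5 and 1.70, 0.958 in ATP1-111 cells and 1.38 after NAR1 repression (WT mean log2 0.72, SE 0.06, adjusted p = 0.00169). DRS1 had WT ratios of 1.53, 1.41, 1.12 and 1.30, and 1.70 after NAR1 repression. MAK5, DBP3, DBP9 and SPB4 lay between 1.04 and 1.59 in every WT column. Without the 27 h column 3 of the 6 calls held, with DBP3 (adjusted p = 0.108 in limma), DBP9 (0.126) and MAK5 (0.122) lost, and DBP9 was lost without any 1 of the 4 columns. Like DBP10, they are DEAD-box proteins that rearrange RNA within pre-ribosomes.

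Among the other large-subunit assembly genes 9 of 13 were higher, and 5 of these calls held without the 27 h column. RPF1, a Brix-domain protein, had WT ratios of 1.37, 1.60, 1.46 and 1.75, a ratio of 0.921 in ATP1-111 cells and 2.04 after NAR1 repression (WT mean log2 0.62, SE 0.06, adjusted p = 0.00232). NOP2, an rRNA methyltransferase, had WT ratios of 1.34, 1.55, 1.37 and 1.5, then 0.987 and 1.32 in the ATP1-111 and NAR1 columns. Both genes were at least as high at 27 h as at 3 h, unlike most of the 45. At the other extreme was NOP16, a component of early large-subunit particles, with WT ratios of 1.32, 0.969, 0.665 and 0.787. It had the lowest ratio of the 45 at 19 and at 27 h, and its WT mean did not pass (log2 -0.14, adjusted p = 0.287).

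In the small-subunit set the scaffold protein gene UTP10 of the UTP-A complex was higher over the WT course, with ratios of 1.52, 1.44, 1.22 and 1.44. UTP4, UTP8 and UTP15, its partners in that complex, did not pass for the WT mean. MPP10, the protein that gives the Mpp10 complex its name, had WT ratios of 1.45, 1.61, 1.20 and 1.44 and passed. IMP4 passed as well and IMP3 did not, so members of this 3-protein complex were split by the test. RRP9, the protein specific to the U3 snoRNP, had WT ratios of 0.999, 0.993, 0.785 and 0.85. It was thus level with its control at 3 and 11 h, and its WT mean did not pass (log2 -0.15, adjusted p = 0.121 in limma). NOC4 and NOP14, which bind each other, both passed, at WT means of 0.42 and 0.25 on the log2 scale. The NOP14 call was lost without any 1 of the 4 columns and the IMP4 call without 3, 11 or 27 h.

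UTP20, a very large scaffold protein, had a ratio of 1.62 at 3 h and then 0.898, 0.854 and 0.99. UTP22 (1.17, 0.946, 0.809 and 0.906) and NOP16 were also above their controls at 3 h alone among the WT columns. For UTP20 the difference of -0.85 on the log2 scale between 11 and 3 h was the lowest among the 45. Its reading frame is the longest of the set. Over the 45 factors the log2 ratio at 3 h had a Pearson correlation of 0.11 with log2 length and the NAR1 column one of -0.24, descriptions across genes that share the same arrays.

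**Figure D2:**
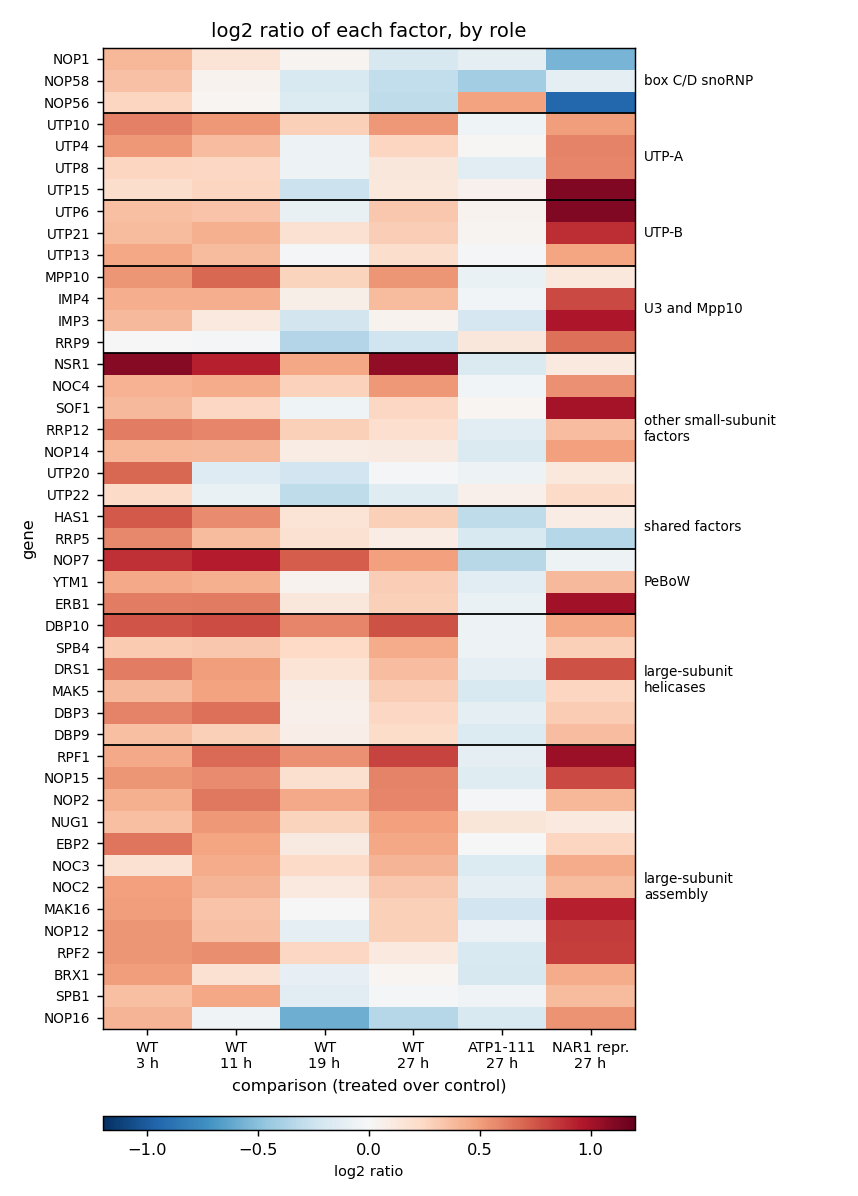
Colour gives the log2 ratio (treated over control) of each of the 45 genes (rows, grouped by role and ordered by their WT 27 h value) in the 6 comparisons (columns). Red cells prevail at 3 and 11 h and in the NAR1 column, every gene is lower in the 19 h column than in the 11 h column, and the box C/D genes are blue at 27 h and in the NAR1 column.

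The next question was how these genes moved with time. No factor passed the test of the WT slope (0 rose and 0 fell, with 0 and 9 at an unadjusted p under 0.05). Among all genes 4.63% rose and 2.62% fell, and at an unadjusted p under 0.05 857 and 998 of the 6151 did. The 9 falling factors are near that share of all genes. The fitted change over 24 h was below 0 for 39 of 45 factors, with a median of -0.30 on the log2 scale and -0.05 over all genes. The share of all genes with a fitted change below 0 was not counted. By the plain difference 54.3% of all genes were lower at 27 than at 3 h. Single SEs of the fitted change of the factors lay between 0.14 and 0.34.

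The values did not follow a line. All 45 factors were lower at 19 than at 11 h, a direction shown by 53.9% of all genes, with a median log2 difference of -0.31 and -0.02 over all genes. The difference ran from -0.61 for DBP3 to -0.07 for UTP20. Between 19 and 27 h 38 of 45 were higher again, against 48.4% of all genes, with a median difference of 0.21. Against 3 h, 28 factors were lower at 11 h (51.7% of all genes), 42 at 19 h (53.8%) and 37 at 27 h (54.3%). The 19 h value was the lowest of the 4 for 35 of the 45 factors, and for 22.1% of all genes. These differences between columns carry no replicate error and no test. With each column centred on the median of all genes the medians of the factors were 0.46, 0.44, 0.13 and 0.34, so the 19 h value stayed the lowest.

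The widest differences between 11 and 19 h were those of DBP3, SPB1 and NOP16. The ratio of DBP3 was 1.59 at 11 h and 1.04 at 19 h, that of SPB1, a methyltransferase of the large-subunit precursor, went from 1.38 to 0.914, and that of NOP16 from 0.969 to 0.665. UTP6 of the UTP-B complex, NSR1 and NOP15, an RNA-binding large-subunit factor, had the highest increases from 19 to 27 h, NSR1 by 0.60 on the log2 scale. NOP7, DBP10 and RPF1 stayed at 1.46 or above at 19 h.

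Among the 45, the core proteins of box C/D snoRNPs, which guide methylation of rRNA riboses, went down at each later time by their values. NOP1, the methyltransferase of these particles, had WT ratios of 1.32, 1.12, 1.03 and 0.877. NOP56 had 1.19, 1.01, 0.895 and 0.81, and NOP58 had 1.28, 1.03, 0.881 and 0.814. None of the 3 turned up at 27 h, while 38 of the 45 factors turned up. NOP7 (-0.24 on the log2 scale), RPF2 (-0.13), RRP5 (-0.09) and RRP12 (-0.08) were also lower at 27 than at 19 h. Of these, RRP5 and RRP12 likewise went down at each later time. The fitted changes of NOP1, NOP56 and NOP58 over 24 h were -0.57, -0.56 and -0.65 on the log2 scale. They had the 3 lowest adjusted p-values of the 45 for the slope, none of them past the threshold (0.0729, 0.0761 and 0.0637 in limma). RRP5, a scaffold needed for both subunits, was the fourth (WT ratios 1.49, 1.30, 1.13 and 1.07, adjusted p = 0.0979).

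Assembly factors outside the 45 were described as 2 further lists, whose medians lay close to those of the 45. The 46 further small-subunit factors had median log2 ratios of 0.45, 0.44, 0.17 and 0.39 over the WT course, and 31 of them were higher by the WT mean and 0 lower. For the 51 further large-subunit factors the medians were 0.49, 0.43, 0.11 and 0.25, with 34 higher and 2 lower. In these lists 44 of 46 and 48 of 51 genes were lower at 19 than at 11 h, against 53.9% of all genes. For the other lists the share of all genes, 19.8% higher and 23.9% lower by the WT mean, is the measure to read the counts against. Subunits and factors of RNA polymerase I had medians of 0.30, 0.21, -0.03 and 0.07, and 4 of 15 genes passed upward, among them RRN3, the initiation factor of the enzyme. RNA polymerase III had 5 of 21 genes higher and 1 lower, and the nuclear exosome, which trims rRNA precursors, had 4 of 12 higher and 1 lower. The upward counts of both polymerases lie near the share over all genes. Of the H/ACA snoRNP core, which guides pseudouridylation of rRNA, 0 of 3 measured genes passed in limma (NHP2, CBF5 and GAR1). Their median log2 ratios were 0.36, 0.10, -0.20 and -0.04 over the WT course, so they too went down up to 19 h.

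The 2 lower genes of the large-subunit list were RSA3, at 0.699 after 27 h, and RLI1, an iron-sulfur ATPase of ribosome recycling and subunit export. The ratio of RLI1 went from 1.10 at 3 h through 0.823 and 0.467 to 0.446 at 27 h, and it fell with time (log2 change over 24 h -1.42, adjusted p = 0.0321), the only gene of these 2 lists past the slope test. It was 0.831 in ATP1-111 cells and 1.94 after NAR1 repression.

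Genes for the cytosolic ribosomal proteins lay below their controls in WT cells from 11 h on, by their median. Their median log2 ratio was 0.15 at 3 h and then -0.45, -0.66 and -0.63, and 107 of the 136 tested were lower by the WT mean and 0 higher. By their medians these genes and the biogenesis factors were thus both above their controls at 3 h and on opposite sides from 11 h on. At 19 h the median of the factors was only 0.08, with 28 of 45 above 0 (45.6% of all genes). Between 3 and 19 h both lists went down, for 133 of 136 ribosomal protein genes and 42 of 45 factors, against 53.8% of all genes. No test compared the lists.

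**Figure D3:**
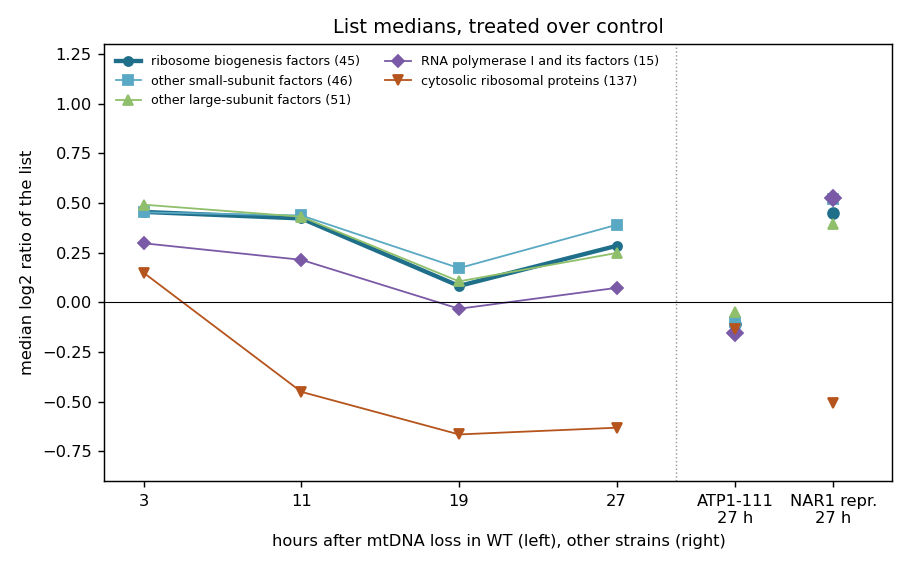
Median log2 ratios (treated over control, vertical axis) of the 45 factors and of 4 other lists are shown against hours after mtDNA loss in WT cells, with the ATP1-111 and NAR1 columns at the right. The curves of the 3 assembly factor lists overlie each other with their lowest point at 19 h, that of polymerase I runs below them, and the ribosomal protein genes fall from 0.15 to -0.66.

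Among known regulators of ribosome genes, TOD6 and DOT6 encode related repressors that bind a promoter element common in biogenesis genes. TOD6 had WT ratios of 1.60, 1.87, 1.60 and 2.30, and DOT6 had 1.00, 1.30, 1.44 and 1.62, both higher by the WT mean (adjusted p = 0.0021 and 0.00605). IFH1, a coactivator of ribosomal protein genes, reached 2.25 at 27 h from 1.15 at 3 h and was also higher by the WT mean (adjusted p = 0.00674). ABF1, a general regulatory factor, was lower, at 0.51 after 27 h. SFP1, an activator of both gene groups, had a ratio of 1.35 at 27 h. Of the 13 regulators 5 were higher and 3 lower by the WT mean, where 19.8% and 23.9% of all genes were, so the lower count is near the share over all genes.

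In ATP1-111 cells 27 h after mtDNA loss the biogenesis factors lay, by their median, slightly below their level in ATP1-111 cells with mtDNA. Their log2 ratios ran from -0.42 to 0.48 with a median of -0.11, where the median of all genes was -0.02. Only 10 of 45 were above 0, where 46.3% of all genes were, and 18 of 45 lay below the lower quartile of all genes. By size, 0 factors were 1.5-fold higher and 0 were 1.5-fold lower, against 1.93% and 1.38% of all genes. In limma's test of this column against no change 0 factors were higher and 0 lower (1 and 2 at an unadjusted p under 0.05), and 0.065% and 0.0488% of all genes. At the unadjusted p 225 and 274 of the 6151 genes were higher and lower.

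By the plain difference from the WT 27 h column, 40 of 45 factors had a lower ratio in ATP1-111 cells, against 45.6% of all genes, with a median difference of -0.35, and 5 had a higher one, against 54.2%. The ATP1-111 column was narrower over all genes, with a median absolute deviation of 0.11 against 0.28 in the WT 27 h column (log2). The part of this narrower spread in the differences was not tested. The limma test against the fitted WT level at 27 h was passed by 2 lower and 1 higher factor (11 lower and 2 higher at an unadjusted p under 0.05), where 4.62% and 3.09% of all genes passed downward and upward. At the adjusted p the shares of the factors are close to those over all genes. At the unadjusted p 888 and 942 of the 6151 genes were lower and higher. The lower genes were NOP7 (0.796 against a WT ratio of 1.41, fitted log2 difference -0.89, SE 0.16, adjusted p = 0.0443) and RPF1 (0.921 against 1.75, -0.88, SE 0.17, adjusted p = 0.0456). NSR1 had the widest plain difference, -1.24 on the log2 scale, and did not pass (adjusted p = 0.111). All 3 calls were lost without the 11, 19 or 27 h column, with log2 hours, with columns scaled to equal spread and by ordinary least squares.

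The higher gene was NOP56, which had a ratio of 1.40 in ATP1-111 cells and 0.81 in WT cells (log2 difference 0.81, SE 0.14, adjusted p = 0.0379). Its partner NOP58 was the lowest of the 45 in ATP1-111 cells, at 0.747, and NOP1 stood at 0.928. The core proteins of 1 particle were therefore both the highest and the lowest genes of the set in this strain. Among the further factors, 4 of 46 small-subunit genes (KRR1, ENP1, ENP2 and BMS1) had a lower ratio than in WT cells by limma's test. So had 3 of 51 large-subunit genes (SDA1, DBP2 and NPA3), and 0 of either list had a higher one. Over all genes 4.62% had a lower and 3.09% a higher ratio by this test, so the large-subunit count is near that share. For ribosomal protein genes the difference of the ratios went the other way. By the plain difference 136 of 137 had a higher ratio in ATP1-111 than in WT cells at 27 h, against 54.2% of all genes. The test was passed by 7 of 136, against 3.09% of all genes. Their median log2 ratio was -0.13 in the ATP1-111 column, beside -0.11 for the 45 factors. In the WT 27 h column these medians were -0.63 and 0.28, so both were smaller in size in the ATP1-111 column, which was narrower over all genes.

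Repression of NAR1 gave the widest spread among the biogenesis factors. Of the 45, 18 rose and 2 fell after 27 h, where 13.3% of all genes rose and 11.2% fell (limma, level against no change). At an unadjusted p under 0.05 the counts were 29 and 3, and 1375 and 1140 for all 6151 genes. By size, 16 were at least 1.5-fold higher (9.71% of all genes) and 1 at least 1.5-fold lower (10.1%). The median log2 ratio was 0.45 for the factors and 0.03 for all genes. With columns scaled to equal spread 0 rose and 0 fell (17 and 2 at an unadjusted p under 0.05), and by ordinary least squares also 0 and 0 (13 and 3). Leaving out the 3, 11, 19 or 27 h column gave 21, 13, 14 and 23 rising factors, with NOP1 lost without 19 h, NOP12 without 11 h, and UTP8, NOP14, NOC4 and DBP10 without either of these.

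Small-subunit factors made up 10 of the 18 that rose, out of 18 small-subunit factors, where 13.3% of all genes rose. In the UTP-B complex UTP6 had a ratio of 2.16 (log2 1.11, SE 0.18, adjusted p = 0.0166) and UTP21 one of 1.84 (0.88, SE 0.12, adjusted p = 0.0117), against 1.25 and 1.23 in WT cells 27 h after mtDNA loss. In UTP-A, UTP15 had 2.16 (log2 1.11, SE 0.19, adjusted p = 0.0181) and UTP8 1.51, against 1.09 and 1.10 in WT cells. UTP4, at 1.51, did not pass. SOF1, which associates with U3, was at 1.99 (adjusted p = 0.0155), IMP3 at 1.97 (adjusted p = 0.0182) and IMP4 at 1.73. RRP9 rose as well, to 1.58 against the control of this strain, and was at 0.85 in WT cells 27 h after mtDNA loss.

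Several genes raised in WT cells lay near their control here. NSR1 had a ratio of 1.08 and MPP10 one of 1.09 after NAR1 repression. NOP7 was at 0.956. Over the 45 factors the NAR1 and WT 27 h columns, which come from different strains and controls, had a Pearson correlation of 0.26 and a Spearman correlation of 0.11, with 0.19 for Pearson's r over all genes.

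Among large-subunit factors 8 of 22 rose and 0 fell, where 13.3% of all genes rose and 11.2% fell. RPF1 reached a ratio of 2.04 (log2 1.03, SE 0.13, adjusted p = 0.00963) and RPF2, a Brix-domain protein as well, 1.78 (0.83, SE 0.12, adjusted p = 0.013). ERB1 stood at 2.02 (adjusted p = 0.0138) and MAK16, a partner of RPF1 in early large-subunit particles, at 1.90 (adjusted p = 0.0193). NOP12, NOP15 and DRS1 were at 1.79, 1.73 and 1.70. DBP10 just passed (adjusted p = 0.0499) and no longer did with centred columns (adjusted p = 0.0593). The GTPase gene NUG1 was at 1.09.

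The 2 factors that fell were both box C/D core genes. NOP56 had a ratio of 0.519 (log2 -0.95, SE 0.11, adjusted p = 0.0078, the lowest of the 45) and NOP1 one of 0.678 (-0.56, SE 0.11, adjusted p = 0.0222). NOP58, at 0.919, did not pass. RRP5 had a ratio of 0.787, also without passing. All 18 small-subunit factors and 21 of 22 large-subunit factors had a ratio above 1, with NOP7 the only one below. Among all genes 53.1% had a ratio above 1 in this column.

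**Figure D4:**
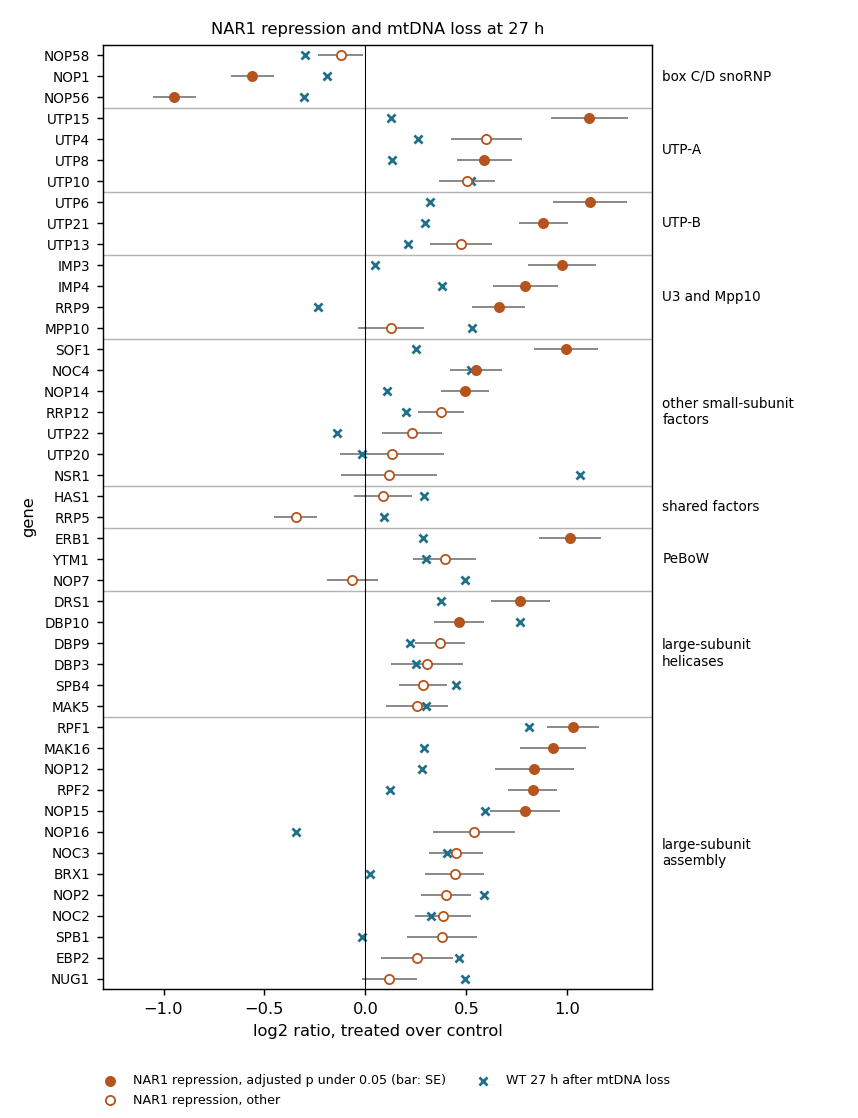
The log2 ratio (horizontal axis) after NAR1 repression is shown for each of the 45 genes (vertical axis, grouped by role) as a circle with its SE, filled where the adjusted p was under 0.05, and crosses give the WT value 27 h after mtDNA loss. Filled circles lie to the right for 18 genes and to the left for NOP1 and NOP56, and NSR1 and MPP10 have crosses well to the right of their circles.

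Compared directly with the fitted WT level at 27 h, a contrast added after the values were seen, 10 factors were higher after NAR1 repression and 2 lower, against 13.9% and 12.1% of all genes. At an unadjusted p under 0.05 the counts were 17 and 4, and 1482 and 1138 for all 6151 genes. By the plain difference of the columns 31 of 45 factors were higher, against 56.2% of all genes. The higher ones included RRP9 (log2 difference 0.96, SE 0.17, adjusted p = 0.0186), IMP3 (1.10, SE 0.22, adjusted p = 0.0243) and NOP16 (1.10, SE 0.26, adjusted p = 0.0367), and the lower ones were NOP56 and NOP7 (-0.62 for each). Without the 19 h column only UTP15 passed upward and 0 downward, without 11 h the counts were 4 and 0, and with centred columns 6 passed upward.

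The further factors moved alike in the NAR1 column, where 13.3% of all genes rose and 11.2% fell. Of the 46 small-subunit genes 18 rose and 0 fell, led by UTP9 of the UTP-A complex at a ratio of 3.03, and of the 51 large-subunit genes 17 rose and 0 fell, led by the GTPase gene NOG2 at 2.92. RNA polymerase I had 5 of 15 genes risen, with RRN3 at 2.88, polymerase III had 4 of 21 and the exosome 4 of 12. The polymerase III count is near the share over all genes. Of the ribosomal protein genes 37 of 136 fell and 1 rose, with a median log2 ratio of -0.51, so the opposite signs of the 2 classes by their medians at 27 h in WT cells were also seen here. DOT6 and TOD6 parted in this column. DOT6 fell to a ratio of 0.439 (log2 -1.19, adjusted p = 0.00647) and TOD6 rose to 2.05 (adjusted p = 0.016), while IFH1 rose to 2.60.

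By size in the WT columns, 11 factors were at least 1.5-fold higher at 3 h (2.18% of all genes), 9 at 11 h (4.42%), 2 at 19 h (8.65%) and 5 at 27 h (11.1%). The share of the factors was thus above that of all genes at 3 and 11 h, at 24.4% and 20%, below it at 19 h, at 4.44%, and the same at 27 h, at 11.1%. At least 1.5-fold lower were 0 factors at 3 h (2.73% of all genes), 0 at 11 h (3.84%), NOP16 alone at 19 h (8.29%) and 0 at 27 h (10.5%). With columns scaled to equal spread the counts were 26 factors at 3 h, of 376 genes in all, and 14 at 11 h, of 384, against 134 and 272 genes without scaling. HAS1, a helicase of both subunits, and EBP2, a large-subunit factor, were among those past this size at 3 h alone of the 4 WT columns, at 1.67 and 1.56. At least 2-fold higher were NSR1 at 3 h (0.341% of all genes) and at 27 h (5.17%), 0 factors at 11 h (1.22%), at 19 h (3.8%) and in ATP1-111 cells (0.65%), and 4 after NAR1 repression (2.19%). These 4 were UTP6, UTP15, RPF1 and ERB1. At least 2-fold lower were 0 factors in any column, where 0.927%, 0.634%, 1.79% and 2.83% of all genes were so in the WT columns in order of time, 0.358% in ATP1-111 cells and 3.72% after NAR1 repression.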

How the data were processed

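The deposited table held linear ratios, treated over control, in 6259 rows and 6 columns. Per the labels, each column was the authors' average over 6 arrays (5 for ATP1-111). No source used here names the scanner, the background correction, the normalization or the kind of average. Direction was taken from the titles. The 28 control rows were left out, ratios were taken to log2, and 26 spots of 13 genes were averaged (no factor had 2 spots), which gave 6205 reading frames, 5705 of them named through the R64 gene table. Only ratios were used, so spot brightness did not enter, and the number of arrays limits the precision.

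In limma 3.58.1 (R 4.3.3) all 6 columns entered 1 fit whose terms were the WT slope per hour, the WT level at 27 h, and a level each for ATP1-111 and NAR1 repression. It left 2 residual degrees of freedom, to which eBayes added 3.35. Tests were two-sided on the 6151 genes with complete values, with Benjamini-Hochberg adjustment and a threshold of 0.05, and the script was tested on simulated data. A curved time course counts as noise. Of 6 contrasts, 3 (the WT mean, the ATP1-111 level and NAR1 minus WT) were added after the values were seen. Fold counts used 1.5-fold in either direction.

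The 45 factors, their 9 roles, the 8 other lists (298 of 299 genes with a row) and the tests were chosen with earlier results of these data known. Named genes were the highest and lowest factor of each role and the 5 at either end of the 3 h, 27 h, ATP1-111 and NAR1 columns, the 5 at either end of 3 differences (19 minus 3 h, 27 minus 19 h, ATP1-111 minus WT), factors past a test, and up to 2 at either end of each other list at 27 h and in the NAR1 column. Others were chosen after their values were seen. Promoter motifs were not analysed here.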

Additional observations from a re-analysis of the deposited data

Results flagged for a closer look

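For 3 factors the effect of mtDNA loss at 27 h differed between ATP1-111 and WT cells by limma's test of the difference, on the log2 scale. NOP56 was higher in ATP1-111 cells by 0.81, while NOP7 (-0.89) and RPF1 (-0.88) were lower. These shares of the 45 factors, 2.22% up and 4.44% down, are near those over all genes, 3.09% and 4.62%. All 3 calls were lost under 6 of the 10 alternatives. The adjusted p-values ranged from 0.0289 to 0.215 for NOP56, from 0.0258 to 0.231 for NOP7 and from 0.0333 to 0.233 for RPF1 over the alternatives. No direction turned. The ATP1-111 column is a single average over 5 arrays, and its part in these differences was not tested.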

How the results depend on the processing

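Directions of the 64 single calls on factors turned under 0 of the alternatives. All 64 held with robust moderation, 63 with missing values kept, 60 with log2 hours, 59 with centred columns, 29 with columns centred and scaled to equal spread, and 0 by ordinary least squares. Without the 3, 11, 19 or 27 h column 55, 37, 43 and 43 held. The refits without a column hold fewer samples, and the cause of the other losses was not tested. Under each of these the WT slope gave 0 factors up and 0 down. For ATP1-111 minus WT, the counts up and down were 0 and 0 with scaled columns, log2 hours, ordinary least squares, or without 11, 19 or 27 h. NAR1 repression gave 0 up and 0 down with scaled columns and by ordinary least squares, and 1 down without 19 h. NAR1 minus WT gave 6 up with centred columns, 0 and 0 with scaled columns and by ordinary least squares, 4 and 0 without 11 h, 1 and 0 without 19 h, and 0 down without 27 h. The WT mean gave 0 up by ordinary least squares, 18 without 11 h and 16 without 27 h, where 1 factor, NOP16, was down. NOP56 alone was up in ATP1-111 against no change with scaled columns (1 up). At 2-fold the counts higher were 1, 0, 0 and 1 in the WT columns and 4 after NAR1 repression, and 0 lower at 19 h and after NAR1 repression. Centred columns gave 0 lower at 19 h and 2 lower after NAR1 repression. Scaled columns gave 26, 14, 1 and 3 higher at 3, 11, 19 and 27 h, 0 lower at 19 h, 1 higher and 2 lower in ATP1-111, and a 3 h median of 0.66. No paired analysis was possible because each comparison is 1 averaged column. The promoter motif alternative was not run.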
